A study of Mus musculus with 4 samples.

Results

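The airway and alveolar epithelial genes are 39 genes that mark the cells lining the lung. They cover alveolar type 1 cells, alveolar type 2 cells, and the secretory, goblet, ciliated and basal cells of the airways. Keratins, junction proteins and surface proteins found in several of these cell types are also included. The rule that picks the 39 genes uses names and no measured values, out of 20832 named genes with a probe on the array. The members were nevertheless chosen with earlier results of these data known. Scgb3a2 was not analysed here, and a probe was found for the other 38. Of the 38, 37 were well above background on all 4 arrays and were tested among 15411 named genes. Slc34a2, the phosphate transporter of alveolar type 2 cells, did not rise well above background (0 of 4 arrays).

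The arrays were hybridized with RNA from BALF cells, which are the cells washed out of the airspaces of the lung, of mice given bleomycin, a drug that injures the lung and leads to fibrosis. The labels assign 2 arrays to wild-type mice and 2 to S1pr2-/- mice, a line described as having the gene of the receptor S1PR2 deleted in the whole body, and both genotypes were littermates of a mixed background that includes C57BL/6J, aged 8 to 10 weeks. Mice of both genotypes had received intraperitoneal bleomycin at 0.035 U/g, 2 injections a week, and the cells were taken on day 22. The sample records call these cells alveolar macrophages, while the extraction was from all BALF cells, and no saline group was analysed here. How many mice contributed to each RNA is not given in the sources used here. The design text states that 2 independent experiments were done, but no label says that the arrays of a genotype came from separate animals, so p-values measure only the spread between these arrays.

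The lung epithelium has an alveolar and an airway part. Flat alveolar type 1 cells form the surface for gas exchange, and cuboidal type 2 cells secrete surfactant, the lipid and protein film that keeps alveoli open, and give rise to type 1 cells after injury. In the airways, club and goblet cells secrete defence proteins and mucins, ciliated cells move the mucus, and basal cells renew the others. Shed epithelial cells and their RNA can be recovered by lavage together with leukocytes.

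Levels are given as log2 of the probe's signal over the 75th percentile of its array, so that 0 is the level of that percentile, and differences are on the same log2 scale, labelled S1pr2-/- minus wild-type. The 75th percentile lay between 2489 and 2817 intensity units, no spot was saturated (0 on each array), and the share of probes well above background was 67.5% to 72.1%. The S1pr2 probe went against the label: its log2 level was -0.13 and -0.16 in wild-type but 2.67 and 2.54 under the S1pr2-/- label. Whether this probe lies in the deleted part of the gene is not given in the sources used here. All directions given here therefore follow the labels, and the arrays are called labelled S1pr2-/-. The 10 alveolar macrophage markers were all measured, with a summed signal of 608 and 660 times the 75th percentile in wild-type and 589 and 656.5 times under the S1pr2-/- label.

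Without overlap, 9 of 13 alveolar members and 6 of 11 keratin, junction and surface members lay lower on both arrays labelled S1pr2-/-. These shares were 69.2% and 54.5%, against 21.9% of all genes, and the genes had 16.5% to 29.5% less signal. Of the keratins only Krt7 and Krt18 did so, while Krt8, Krt19, Krt5 and Krt14 overlapped. The secretory and ciliated genes of the airways mostly overlapped between genotypes and differed most between the replicate arrays. Of the 37 members tested, limma called 0 at an adjusted p under 0.05 (adjusted p between 0.509 and 0.964), as it called 0% of all named genes. At an unadjusted p under 0.05, 4 members were lower (Ager, Sftpd, Nkx2-1 and Krt18), which is 10.8% against 5.96% of all named genes tested, and 1 was higher (Hopx), against 4.56%. Both arrays labelled S1pr2-/- lay below both of the wild-type ones in 16 members, or 43.2%, against 21.9% of all genes, and above both for 3 members, against 22.2%. The median difference over the members was -0.26, with 25 members below 0 and 12 above 0, against 0.00 over all named genes. Muc5ac was the only member past 2-fold lower, against 1.51% of all genes, and 0 were past 2-fold higher, against 0.214%. Its difference, -1.11, was -0.48 without wild-type replicate 2 and -0.69 with normexp background correction, both within 2-fold. These figures moved with single arrays: the median was -0.011 without S1pr2-/- replicate 1, and without S1pr2-/- replicate 2 it was -0.34, with 27 members below, where 36.8% of all genes lay below. Without S1pr2-/- replicate 1, 2 members were lower and 4 higher at an unadjusted p under 0.05, where 4.01% and 5.18% of all genes were, and without S1pr2-/- replicate 2, 7 were lower, where 3.88% of all genes were. In cells from lavage, fewer cells of a type and less RNA per cell cannot be told apart.

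**Figure D1:**
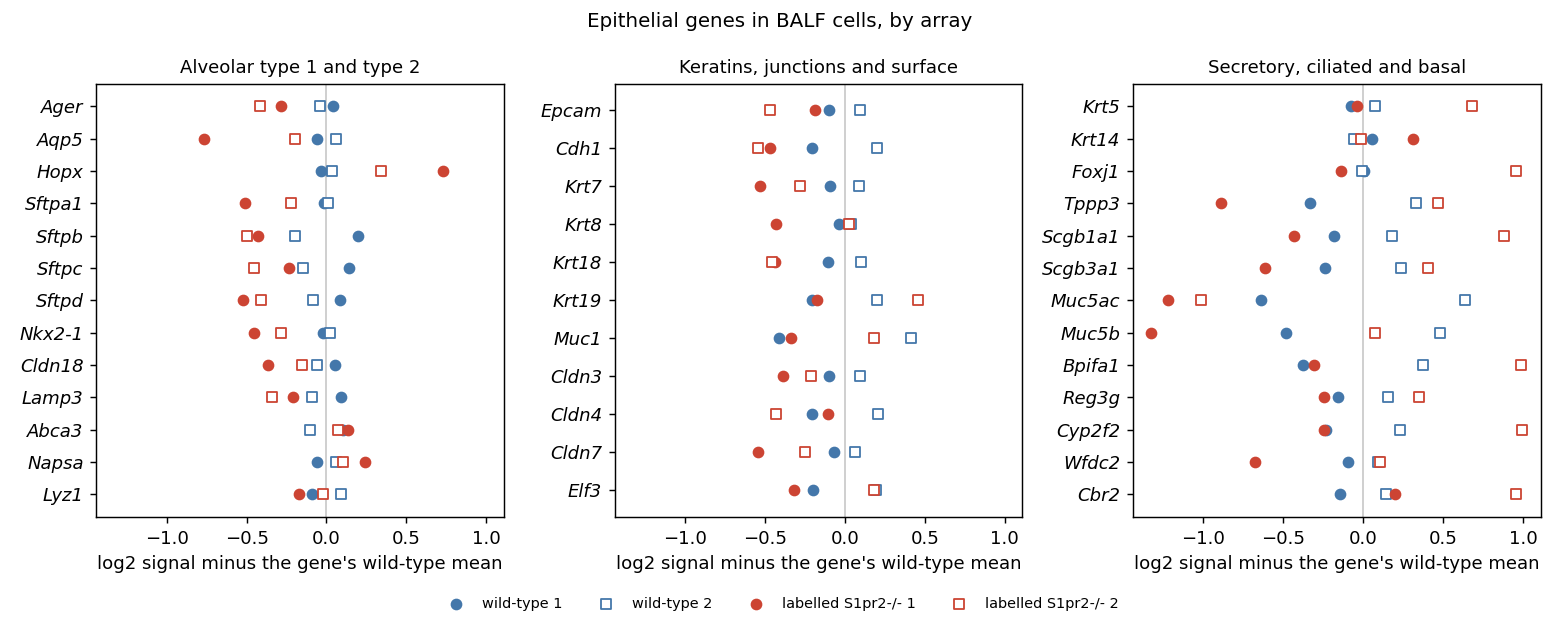
Log2 signal of the 37 members tested on each of the 4 arrays, minus the gene's mean over the wild-type arrays (x axis, log2 units), in 3 panels by cell type; circles are replicate 1 and squares replicate 2. Red points lie left of both blue points for 9 of 13 alveolar genes (69.2% against 21.9% of all genes). In the right panel the red squares lie right of the red circles for all 11 secretory and ciliated genes.

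Promoters are shown for surfactant and type 2 genes whose arrays did not overlap (Sftpa1, Sftpb and Lamp3) and, beside them, for the secretory gene Scgb3a1, whose arrays overlapped, because these are genes on which the alveolar and airway results turn. Of the 39 members, 28 had a promoter in the RefSeq table of build GRCm38.p6. Each run is the 250 bases before the transcription start, 5′ to 3′ on the strand of the gene, with motif matches on either strand in capitals. The positions are chr14:41131538-41131787 on the plus strand for Sftpa1, chr6:72304360-72304609 on the plus strand for Sftpb, chr16:19706366-19706615 on the minus strand for Lamp3, and chr11:49663345-49663594 on the plus strand for Scgb3a1.
Sftpa1: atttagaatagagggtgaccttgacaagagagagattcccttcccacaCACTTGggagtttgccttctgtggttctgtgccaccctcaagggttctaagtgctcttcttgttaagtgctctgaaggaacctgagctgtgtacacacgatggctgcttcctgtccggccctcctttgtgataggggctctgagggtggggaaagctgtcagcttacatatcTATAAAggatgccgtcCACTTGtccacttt
Sftpb: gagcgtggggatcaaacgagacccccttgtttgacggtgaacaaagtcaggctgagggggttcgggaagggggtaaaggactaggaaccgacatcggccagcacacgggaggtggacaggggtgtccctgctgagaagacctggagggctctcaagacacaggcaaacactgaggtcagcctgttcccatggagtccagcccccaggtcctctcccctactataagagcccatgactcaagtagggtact
Lamp3: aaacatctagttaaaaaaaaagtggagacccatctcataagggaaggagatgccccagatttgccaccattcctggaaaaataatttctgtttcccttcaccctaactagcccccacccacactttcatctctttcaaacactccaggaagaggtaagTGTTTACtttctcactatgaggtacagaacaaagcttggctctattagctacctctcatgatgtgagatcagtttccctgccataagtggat
Scgb3a1: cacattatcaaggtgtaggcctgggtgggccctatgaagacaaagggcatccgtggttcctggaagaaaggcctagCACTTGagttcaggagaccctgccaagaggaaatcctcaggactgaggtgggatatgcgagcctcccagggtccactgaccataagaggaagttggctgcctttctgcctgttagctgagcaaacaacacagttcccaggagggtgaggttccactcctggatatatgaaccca

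Both strands were searched for CAAGTG, the core bound by NKX2-1, the homeodomain factor of lung epithelium, for TGTTTAC, a forkhead core, and for TATAAA, the TATA box; these 3 motifs do not overlap each other in the windows shown. The NKX2-1 core started 202 and 14 bases before the start of Sftpa1 and 174 bases before that of Scgb3a1. It was found in 8 of the 28 member genes (Sftpa1, Lyz1, Cldn18, Cldn7, Elf3, Cyp2f2, Scgb3a1 and Wfdc2) and in 11.6% of all 32851 windows of this length. The forkhead core was found in Lamp3 alone among the members, 92 bases before its start, and in 3.17% of all windows. The TATA box was found in 4 member genes, including Sftpa1 at 30 bases before its start, and in 12.4% of all windows. These matches describe letters only, and they occurred in genes that lay lower as well as in genes whose arrays overlapped.

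All 4 surfactant proteins lay lower on both arrays labelled S1pr2-/-, without overlap, at 21.3% to 27.6% less signal. Of all genes tested, 21.9% lay below without overlap. Sftpc, the small hydrophobic surfactant protein made only by type 2 cells in the lung, was at 3.18 and 2.89 in wild-type against 2.80 and 2.58 under the S1pr2-/- label, a difference of -0.34 (standard error 0.15, 95% interval -0.80 to 0.11). Sftpb, the hydrophobic protein needed for spreading of the film, was at 0.53 and 0.13 in wild-type against -0.10 and -0.17, a difference of -0.46 (standard error 0.16). In both genes the arrays were ordered by genotype, and the gap between genotypes was small beside the spread within the wild-type pair. The collectin Sftpd, a soluble defence protein, was at 1.17 and 1.00 against 0.56 and 0.67, a difference of -0.47 (standard error 0.095, unadjusted p = 0.0131, adjusted p = 0.509 from limma). The other collectin, Sftpa1, was at -0.91 and -0.88 against -1.40 and -1.12, a difference of -0.37 (standard error 0.12). Sftpb and Sftpd each had another probe, with differences of -0.26 and -0.39 in the same direction. With each array left out in turn, the differences of the 4 genes stayed below 0, between -0.66 for Sftpb and -0.20 for Sftpc.

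The other type 2 genes did not all lie on one side. Lamp3, a protein of the lamellar bodies in which surfactant is stored, was at 2.81 and 2.63 against 2.51 and 2.38, a difference of -0.28 (standard error 0.10). Nkx2-1, the homeodomain factor introduced above, was at -4.85 and -4.81 against -5.28 and -5.11, a difference of -0.37 (standard error 0.087, unadjusted p = 0.0197, adjusted p = 0.509). Cldn18, whose lung form is a claudin of alveolar tight junctions, was at -5.64 and -5.75 against -6.06 and -5.85, a difference of -0.26 (standard error 0.11) near the floor, which all 4 arrays reached with the percentile over detected probes. These 3 genes were lower on both arrays labelled S1pr2-/-, with gaps of 0.10 to 0.27 between the nearest arrays of the genotypes. Napsa, the protease that processes surfactant protein B, lay on the other side, at 1.05 and 1.18 against 1.36 and 1.22, a difference of 0.17 (standard error 0.090). Abca3, the lipid pump of lamellar bodies, and Lyz1, a lysozyme of type 2 cells and macrophages, overlapped between genotypes, with differences of 0.10 (95% interval -0.20 to 0.41) and -0.10 (95% interval -0.42 to 0.23). Over the 10 type 2 genes tested, 7 lay below (70% against 21.9% of all genes) and 1 above (10% against 22.2%) without overlap. Their median difference was -0.31.

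Type 1 cells were read from 3 genes. Ager, the receptor RAGE and the usual marker of type 1 cells, was at -3.78 and -3.87 in wild-type against -4.11 and -4.24 under the S1pr2-/- label, a difference of -0.35 (standard error 0.081, 95% interval -0.59 to -0.10, unadjusted p = 0.0192, adjusted p = 0.509 from limma), or 21.4% less signal. Aqp5, the water channel of type 1 and gland cells, was at -0.71 and -0.59 against -1.42 and -0.84, a difference of -0.48 (standard error 0.23), and its other probe gave -0.52. Both genes lay lower without overlap. Hopx, a homeodomain protein of type 1 cells that leukocytes also express, went the other way, at 0.02 and 0.09 against 0.78 and 0.40, a difference of 0.54 (standard error 0.16, unadjusted p = 0.0406, adjusted p = 0.518 from limma), and its other probe gave 0.40.

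Of the members, 6 are also known from leukocytes (Lyz1, Cbr2, Lamp3, Hopx, Cdh1 and Napsa), and in BALF cells their signal cannot be assigned to epithelium. Among these 6, 2 lay below (33.3% against 21.9% of all genes) and 3 above (50% against 22.2%) without overlap. Their median difference was 0.04. The 9 alveolar genes tested outside these 6 had a median of -0.37. Of the 9, 8 lay below (88.9% against 21.9% of all genes), 0 above (against 22.2%), and Abca3 overlapped. The 3 members above both wild-type arrays (Hopx, Napsa and Cbr2) were all among the 6. The 6 were listed with earlier results of these data known, so the shares of the 9 are not independent of these data. Over all 13 alveolar genes tested, the median was -0.34, with 9 below (69.2% against 21.9% of all genes) and 2 above (15.4% against 22.2%). It was -0.21 without wild-type replicate 1 and -0.22 without S1pr2-/- replicate 1, and under quantile normalization it was -0.25.

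**Figure D2:**
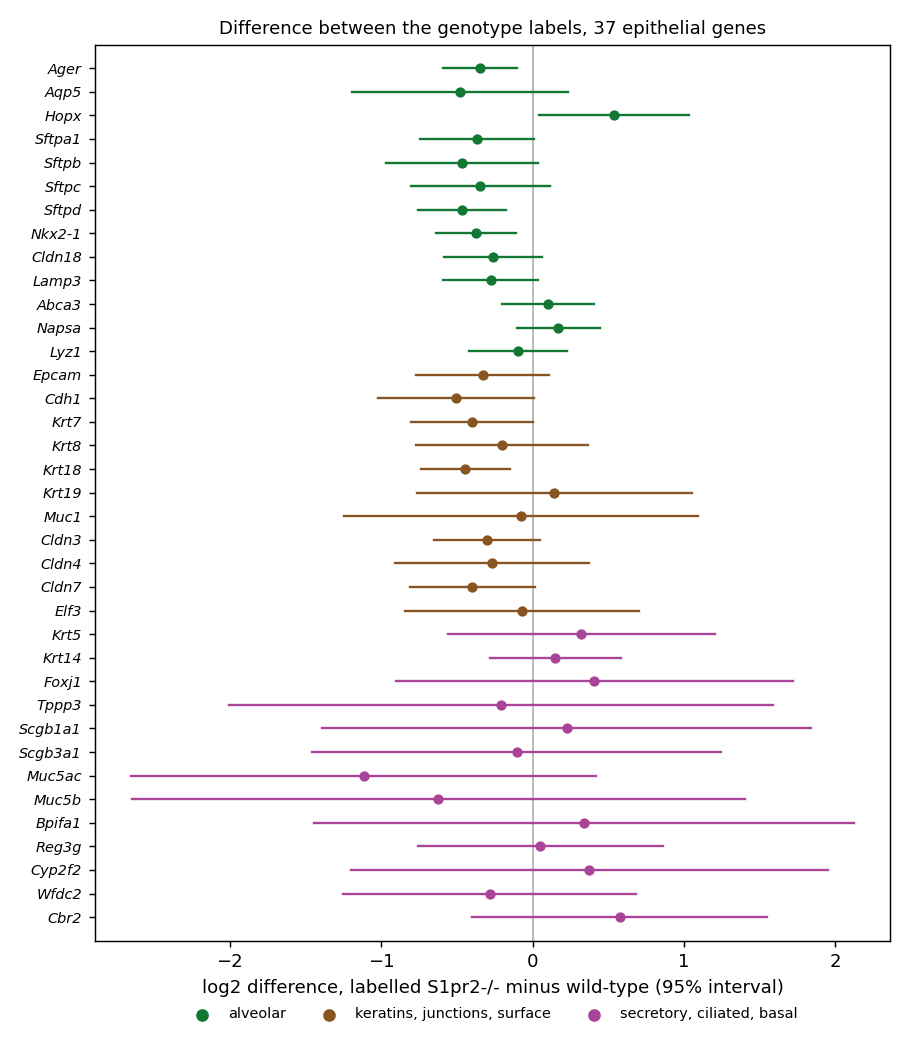
Difference in log2 signal between the arrays labelled S1pr2-/- and the wild-type arrays for the 37 members tested (x axis), with the 95% interval from limma as a bar. Intervals lie wholly below 0 for Ager, Sftpd, Nkx2-1 and Krt18 and wholly above 0 for Hopx, and the widest ones are among the secretory and ciliated genes, as for Muc5ac from -2.65 to 0.42.

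Of 11 keratin, junction and surface genes of epithelial cells, 6 lay lower without overlap (54.5% against 21.9% of all genes), by 18.8% to 29.5% in signal. Krt18, a keratin of simple epithelia, was at 2.05 and 2.25 in wild-type against 1.72 and 1.69 under the S1pr2-/- label, a difference of -0.45 (standard error 0.097, unadjusted p = 0.0159, adjusted p = 0.509 from limma), or 26.6% less signal. Its partner Krt8 had a difference of -0.20 (standard error 0.19). The arrays of Krt18 did not overlap, and in Krt8 only replicate 1 of the arrays labelled S1pr2-/- stood clearly below the others. Krt7, another simple keratin, was at -2.73 and -2.55 against -3.17 and -2.92, a difference of -0.40 (standard error 0.13). Krt19, found in airway and other ductal epithelia, overlapped, at 3.98 and 4.38 against 4.01 and 4.64.

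The adhesion genes were ordered alike. Cdh1, the E-cadherin of adherens junctions, was at 0.78 and 1.18 against 0.51 and 0.44, a difference of -0.50 (standard error 0.17). Epcam, the surface protein used to sort epithelial cells, was at -1.84 and -1.65 against -1.93 and -2.22, a difference of -0.33 (standard error 0.14). In both genes the arrays labelled S1pr2-/- were below both wild-type arrays, with a gap of only 0.09 for Epcam. Of the claudins, which seal tight junctions, Cldn3 was at -0.76 and -0.57 against -1.05 and -0.88, and Cldn7 was at -1.20 and -1.07 against -1.68 and -1.39, with differences of -0.30 (standard error 0.12) and -0.40 (standard error 0.14). Cldn4 overlapped, with a difference of -0.27. Neither Muc1, a membrane mucin, nor Elf3, an epithelial ETS factor, separated the genotypes, with differences of -0.08 and -0.07 that turned to 0.053 and 0.058 under quantile normalization. None of the 11 keratin, junction and surface genes lay above without overlap (0 genes, against 22.2% of all genes). Their median difference was -0.30.

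The secretory and ciliated genes showed another picture: the replicate arrays differed more than the genotypes. Scgb1a1, the main secreted protein of club cells, was at 3.76 and 4.12 in wild-type against 3.51 and 4.82 under the S1pr2-/- label, a difference of 0.22 (standard error 0.53, 95% interval -1.39 to 1.84). Cyp2f2, the cytochrome P450 of club cells, was at 2.53 and 2.995 against 2.52 and 3.76. Both wild-type arrays lay between the arrays labelled S1pr2-/-. Foxj1, the master factor of motile cilia, was at -4.42 and -4.44 against -4.57 and -3.47, a difference of 0.41 (standard error 0.43, 95% interval -0.90 to 1.72), and Tppp3, a tubulin-binding protein of ciliated cells, was at 0.74 and 1.40 against 0.18 and 1.54. Replicate 2 of the arrays labelled S1pr2-/- was thus the highest and replicate 1 the lowest in these genes.

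Replicate 2 lay above replicate 1 in 11 of the 11 secretory and ciliated members on the arrays labelled S1pr2-/-, with a median gap of 1.097, and in 10 of 11 on the wild-type arrays, with a median gap of 0.46, whereas over all genes tested the median gaps were 0.01 and -0.02. The genes include Bpifa1, a secreted airway defence protein (3.28 and 4.03 against 3.34 and 4.64), Scgb3a1, a secretoglobin (3.22 and 3.69 against 2.84 and 3.86), Reg3g, an antimicrobial lectin (difference 0.05, 95% interval -0.76 to 0.86), and Wfdc2, a secreted protein of the airways (1.72 and 1.91 against 1.14 and 1.93). Cbr2, the carbonyl reductase of club cells that macrophages also express, was at 2.98 and 3.27 against 3.33 and 4.08, a difference of 0.58 (standard error 0.32), and was the only gene of the 11 above both wild-type arrays. Over the 11 genes the median difference was 0.05. Without overlap, 1 lay below (9.09% against 21.9% of all genes) and 1 above (9.09% against 22.2%). Without S1pr2-/- replicate 2, 9 of the 11 lay below, and without wild-type replicate 1, 2 of them did. Basal cell keratins overlapped as well: Krt5 was at -4.00 and -3.85 against -3.96 and -3.25, a difference of 0.32 (95% interval -0.56 to 1.20), and Krt14 had a difference of 0.15.

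Among the genes of mucous cells, Muc5ac, Clca1, Fcgbp and Spdef lay lower without overlap. Muc5ac, the gel-forming mucin of goblet cells, was at -4.67 and -3.40 in wild-type against -5.25 and -5.05 under the S1pr2-/- label, a difference of -1.11 (standard error 0.51, 95% interval -2.65 to 0.42, unadjusted p = 0.107 from limma). Clca1, a secreted protein of goblet cells from the list of other secretory genes, was at 0.63 and 1.89 against -2.81 and -1.59, a difference of -3.46 (standard error 0.68, unadjusted p = 0.012, adjusted p = 0.509 from limma), or 90.9% less signal. In both genes the arrays labelled S1pr2-/- lay below the wild-type arrays, and replicate 2 lay above replicate 1 in each genotype. Fcgbp, a mucus protein, was at -3.96 and -2.44 against -5.47 and -4.22, a difference of -1.65 (standard error 0.77) that was -0.89 without wild-type replicate 2, and Spdef, the transcription factor of goblet cell differentiation, was at -4.02 and -4.03 against -4.99 and -4.45, a difference of -0.70 (standard error 0.22, unadjusted p = 0.0446 from limma). Muc5b, the other gel-forming airway mucin, overlapped, at -0.41 and 0.56 against -1.25 and 0.15, a difference of -0.62 (95% interval -2.65 to 1.40).

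**Figure D3:**
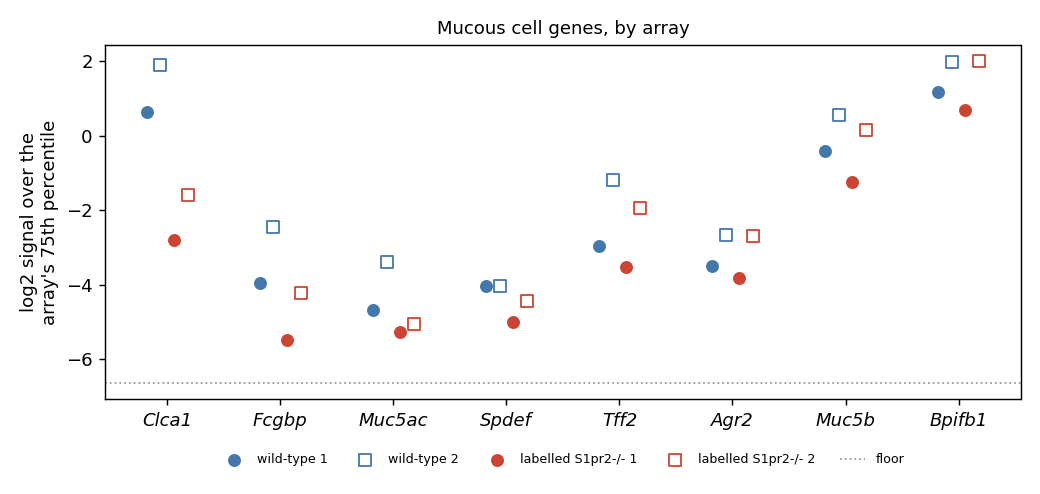
Log2 signal over the array's 75th percentile (y axis) on each of the 4 arrays for 8 genes of mucous cells, chosen for the plot after their values were seen; the dotted line is the floor of the values at -6.64. The red points lie below both blue points for Clca1, Fcgbp, Muc5ac and Spdef and overlap them for Tff2, Agr2, Muc5b and Bpifb1.

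Other genes of the same cell types were taken from 8 lists with 152 genes that are not members, of which 126 were tested. These lists were chosen with earlier results of these data known, so their shares are not independent of the member results. At an unadjusted p under 0.05, 25 of the 126 were lower, or 19.8% against 5.96% of all genes, and 1 was higher, or 0.794% against 4.56%. Without overlap, 43 lay below, or 34.1% against 21.9% of all genes, and 20 above, or 15.9% against 22.2%. limma called 0 of them at an adjusted p under 0.05. Their median difference was -0.08, nearer 0 than that of the members. Which of these other genes leukocytes also express was not examined, so in BALF cells their signal cannot be assigned to epithelium.

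The other alveolar genes held 7 of the 25. Among 10 other type 1 genes tested, Emp2 (-0.45), Clic5 (-0.47), Akap5 (-0.36) and Gprc5a (-0.23) were lower at an unadjusted p under 0.05, none was higher (0 genes), and the median was -0.17. The other probe of Emp2 gave a smaller difference, -0.20. Among 12 other type 2 genes, Hc, the complement component C5, was lower by the largest difference, -0.76 (standard error 0.068), followed by Lrrk2 (-0.44) and the chemokine Cxcl15 (-0.22), with a median of -0.04. Lrrk2 had another probe, at -0.65. Genes listed for the transitional state that type 2 cells pass through after injury had the lowest median of the 8 lists, -0.38 over 10 genes. Which cells gave this signal was not tested. Of these 10 genes, 4 were lower at an unadjusted p under 0.05. They were Hbegf (-0.89) and Areg (-0.52), both ligands of the EGF receptor, and Clu (-0.73), a secreted chaperone. The last was Itgb6 (-0.57), a subunit of the integrin that activates TGF-beta. Without overlap, 5 of the 10 lay below (50% against 21.9% of all genes). Cst6 (0.40) and Cdkn1a (0.18) lay above (20% against 22.2%), and 3 overlapped.

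Junction and surface genes held 8 of the 25, out of 31 tested. Cgn, the tight junction protein cingulin, was at -1.56 and -1.60 in wild-type against -2.26 and -2.24 under the S1pr2-/- label, a difference of -0.66 (standard error 0.056, unadjusted p = 0.000848, adjusted p = 0.509 from limma). The replicates of Cgn differed by far less than the genotypes. The others included the scaffolds Tjp1 (-0.68) and Tjp3 (-0.36), the membrane protease Prss8 (-0.80), Ppl (-0.65), the claudin Cldn1 (-0.45) and the adhesion protein Cxadr (-0.61). Another probe of Prss8 gave a smaller difference, -0.24. Crb3, a polarity protein, was past 2-fold lower with a wide error (-1.67, standard error 0.70), but at -0.78 without wild-type replicate 1 and at -0.89 with normexp. Its other probe gave -0.35. The median over the 31 genes was -0.11.

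Of 16 transcription and splicing factors tested, 3 were lower at an unadjusted p under 0.05, with a median of -0.25. Foxa2, a forkhead factor of lung epithelium, was at -2.82 and -2.72 against -3.44 and -3.41, a difference of -0.66 (standard error 0.068, unadjusted p = 0.00161, adjusted p = 0.509 from limma). Its other probe gave -0.57. Gata6, which acts in lung epithelium beside NKX2-1, had a difference of -0.67 (standard error 0.095), and Esrp2, an epithelial splicing regulator, one of -0.32 (standard error 0.057). These factors were lower on both arrays labelled S1pr2-/-, as Nkx2-1 was.

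The medians of the other airway lists lay between -0.02 and 0.15. Of 21 other secretory genes tested, 2 were lower at an unadjusted p under 0.05 (Clca1 and Spdef) and the median was 0.01, with Cldn10 (-1.05, arrays overlapping) and Sult1d1 (1.07) past 2-fold. Neither stayed past 2-fold throughout: without wild-type replicate 2 Cldn10 was at -0.15 and without S1pr2-/- replicate 1 at -0.65, without S1pr2-/- replicate 2 Sult1d1 was at 0.56 and without wild-type replicate 1 at 0.68, and with normexp the values were -0.49 and 0.43. Of 18 other ciliated genes, 1 was lower (Tuba1a, -0.34), and the median was 0.15. Without overlap, 8 of them lay above, or 44.4% against 22.2% of all genes, and 1 below, or 5.56% against 21.9%. Replicate 2 was above replicate 1 in 17 of these 18 genes on the arrays labelled S1pr2-/-. Of 8 other basal genes, 1 was higher (Ngfr, 0.82), with a median of -0.02.

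**Figure D4:**
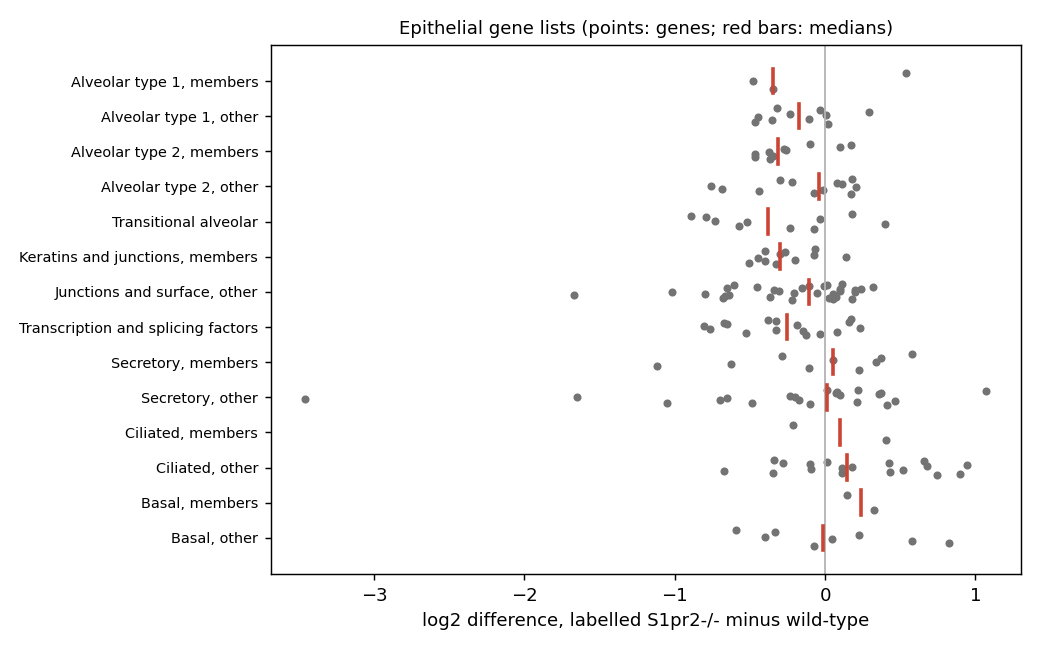
Difference in log2 signal, labelled S1pr2-/- minus wild-type (x axis), of each gene tested in 14 lists of epithelial genes, members and other genes shown apart; points are genes and red bars are medians. The medians of the alveolar, transitional, junction and factor lists lie between -0.38 and -0.04, and those of the secretory, ciliated and basal lists between -0.02 and 0.24.

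Markers of some other cells, most of all eosinophils, differed with the genotype label. The part of other cells in the epithelial results was not tested. All 6 eosinophil markers were lower at an unadjusted p under 0.05, with a summed signal of 6.24 and 20.0 times the 75th percentile in wild-type and 0.411 and 0.574 times under the S1pr2-/- label, and a median difference of -4.50. Of 6 neutrophil markers 3 were lower, with a median of -0.46, and of 6 T cell markers 1 was lower, with a median of -0.36. Of 5 B cell markers 0 were lower, with a median of -0.72. All 5 overlapped between genotypes, and wild-type replicate 2 lay below replicate 1 by a median gap of -1.65. Among 5 fibroblast markers tested, 4 lay above both wild-type arrays (80% against 22.2% of all genes). Of these 4, 1 was higher at an unadjusted p under 0.05 (Dcn, 1.41). The summed signal of the 5 was 0.260 and 0.255 against 0.659 and 0.353. Of the fibroblast markers not tested, Lum, Tcf21 and Fbln1 had no array well above background (0 of 4 for each). The medians were -0.02 for 10 alveolar macrophage markers, with 0 at an unadjusted p under 0.05 in either direction, -0.13 for 6 endothelial, -0.04 for 6 dendritic cell and 0.44 for 4 erythroid markers.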

How the data were processed

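BALF cell RNA was hybridized to 4 Agilent one-color arrays, 2 per genotype, on 1 slide scanned at 1 time, so slide and scan could not be examined as batches. The authors deposited the background-corrected intensity of each spot from Feature Extraction (10.7.3.1 in the labels, 11.0.1.1 in the file headers). They also deposited a log2 table, used here as an alternative; relative to the scanner values it was centred on the wild-type arrays (99.75% of probes within 0.01 after a constant of at most 0.0123 per array), with column medians of 0.023, -0.023, -0.058 and -0.034.

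Each intensity was scaled to the 75th percentile of its array, floored at 0.01 and put on the log2 scale. Outlier-flagged spots (115 to 273 per array) were dropped, and spots of a probe were averaged. A probe entered the fit if all 4 arrays measured it and both arrays of 1 genotype or more had it well above background (27158 of 39429). limma 3.58.1 (lmFit, eBayes; R 4.3.3) was used, with Benjamini-Hochberg adjustment over these probes. RefSeq accessions named 69.6% of probes, and each gene was read from its brightest probe. The array design uses another build than the RefSeq table, so no gene coordinates are given. An exact two-sided permutation test of 2 arrays against 2 cannot give a p under 0.333, and so few arrays limit the precision. The fit was tested on simulated data.

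Per-array values are given for members that did not overlap or had an unadjusted p under 0.05 and for the marker of each cell type; from the other lists, genes with an unadjusted p under 0.05 or past 2-fold are named, and further genes were named after their values were seen. Of the genes so chosen, 1 is left out of the text. The members and lists were chosen with earlier results of these data known. Alternatives covered the scaling (quantile, or the percentile of detected probes), normexp background correction (offset 50, on the median spot signal, as the mean was not among the columns), the log2 table of the authors, the floor, the filter in both directions, kept flags, trended variance, the methods' t-test, averaged probes, the replicate block and single arrays left out.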

Additional observations from a re-analysis of the deposited data

How the results depend on the processing

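The number of probes called at an adjusted p under 0.05 was 0 in the reported fit and 2 with normexp background correction. The 4 members lower at an unadjusted p under 0.05 became 7 with the mean over all probes of a gene and 9 without a floor. They were also 9 with normexp, with only probes detected on all arrays and in the authors' log2 values, and 2 with the methods' t-test. Between 4.06% and 6.59% of all genes were lower in these settings. The 1 member that was higher became 0 without a filter, with the percentile over detected probes and with the methods' t-test. Between 4.13% and 7.36% of all genes were higher in those settings. With an array left out, 16 to 27 members lay below the wild-type arrays, and 1 to 9 of the secretory and ciliated members, but an arm of 1 array overlaps less often, and 32.9% to 38.4% of all genes lay below. The median over the members ranged from -0.34 to -0.011 with an array left out, and that over the alveolar members, -0.34, ranged from -0.35 to -0.21 and was -0.27 with normexp and -0.25 with quantile normalization. In these fits the remaining array of that genotype has no spread of its own, and that of the other genotype is used for it.

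The labels do not say that the replicate number pairs arrays. The deviations of same-numbered arrays from the mean of their genotype correlated at 0.187 over the probes tested. With 2 arrays per genotype both pairs give this same value. With the replicate block, 11 members were lower and 0 higher at an unadjusted p under 0.05, and 5.51% of all genes were lower and 4.13% higher.

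Over 67 named genes, 1046 of 1072 values under the alternatives had the reported direction, 25 had the opposite one, 1 was 0 (Cldn18 with the percentile over detected probes, which put all 4 arrays at the floor), and 0 passed the adjusted threshold. With all arrays, only Elf3 (0.058) and Muc1 (0.053) turned, both under quantile normalization. With an array left out, these genes turned between their lowest and highest value: Abca3 from -0.0014 to 0.21, Bpifa1 from -0.31 to 0.99, Cyp2f2 from -0.24 to 0.99, Elf3 from -0.32 to 0.18, Foxj1 from -0.14 to 0.95, Krt14 from -0.011 to 0.31, Krt19 from -0.18 to 0.46, Krt5 from -0.035 to 0.68, Krt8 from -0.43 to 0.027, Muc1 from -0.49 to 0.34, Muc5b from -1.32 to 0.077, Reg3g from -0.24 to 0.35, Scgb1a1 from -0.43 to 0.88, Scgb3a1 from -0.62 to 0.41, Tppp3 from -0.89 to 0.47 and Wfdc2 from -0.68 to 0.11. The cause was not tested.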

Other observations

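Among 10 genes of salivary and submucosal glands that were tested, 4 were higher on the arrays labelled S1pr2-/- at an unadjusted p under 0.05 from limma, against 4.56% of all genes, and 0 were lower. Dcpp3 was at the floor of -6.64 and at -6.61 in wild-type against -2.46 and -3.57 under the S1pr2-/- label, at least 12.2-fold higher with this floor. Dcpp1 and Sbpl were not well above background on either wild-type array and at least 5.83-fold and 4.58-fold higher, and Dcpp2 was at least 7.93-fold higher (adjusted p = 0.509 from limma for each of the 4). The Dcpp genes are near-identical copies, so their probes may share signal. Car6, of the same list, was at -2.85 on 1 wild-type array and between -6.54 and -5.85 on the other 3 arrays.

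Of 6 genes of squamous epithelium of the upper airway and mouth that were tested, 0 had an unadjusted p under 0.05 in either direction and the median difference was 0.03, with Krt4 and Sprr3 not well above background on any array. Of 2 mesothelial genes tested, 0 had an unadjusted p under 0.05, and Upk3b, Wt1 and Lrrn4 were not well above background on any array.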
